A study of Mus musculus with 30 samples.

Results

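The phagocyte NADPH oxidase NOX2 was followed through 6 genes of its complex, Cybb, Cyba, Ncf1, Ncf4, Rac1 and Rac2, which were chosen by symbol and take 6 of the 25611 gene rows of the count table. All 6 passed the filter on low counts, each as 1 row. RNA came from mouse bone marrow cells cultured with 200 ng/ml FLT3L, a cytokine that drives dendritic cell development, until day 6 to 7, and the cells either carried a Rubcn knockout (KO) or were wild type (WT). Rubcn encodes Rubicon, a protein of LC3-associated phagocytosis. Each genotype was sequenced untreated, after ovalbumin protein (OVA) for 30 min or 4 h, and after either time with apoptotic cells of Jurkat, a T-cell leukaemia line of human origin, which gives 10 groups of 3 libraries. The labels give neither the age of the mice nor the mouse behind each library, so p-values measure the spread between these libraries, which may be technical. They also name no untreated culture per time point, so the same untreated libraries served for 30 min and 4 h. The comparisons asked how oxidase transcripts differed between the genotypes and after each cargo.

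NOX2 moves electrons from cytosolic NADPH across the membrane to oxygen and so makes superoxide in the phagosome. The membrane core, cytochrome b558, is inactive until cytosolic subunits and a GTP-loaded Rac protein dock on it. In LC3-associated phagocytosis the oxidase acts downstream of Rubicon, and its oxidants are needed to conjugate LC3 to the phagosome; in dendritic cells it also limits acidification of the phagosome.

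Cybb encodes gp91phox, the catalytic subunit that holds the haem groups and the flavin (Entrez 13058, mm10 chromosome X, 9435254 to 9469324). Cyba encodes p22phox, its membrane partner (13057, chromosome 8, 122424771 to 122432940). Ncf1 encodes p47phox, the organiser that carries the cytosolic subunits to the membrane (17969, chromosome 5, 134220053 to 134229625). Ncf4 encodes p40phox, which binds phosphatidylinositol 3-phosphate on phagosomes (17972, chromosome 15, 78244811 to 78262580). Rac1 (19353, chromosome 5, 143505481 to 143528031) and Rac2 (19354, chromosome 15, 78559169 to 78572783) encode the GTPases. Rac1 is widely expressed and Rac2 is largely restricted to blood cells.

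The promoter windows of Cybb and Ncf1 are shown because these genes had the largest rises of the 6 after apoptotic cells in WT. They are the 250 bases before the RefSeq start on GRCm38.p6, on the gene's strand, at chrX:9469325-9469574 (minus strand) and chr5:134229626-134229875 (minus strand). Capitals mark matches, on either strand, to GAAA, any 2 bases, GAAA, the core of the interferon-stimulated response element.
Cybb promoter: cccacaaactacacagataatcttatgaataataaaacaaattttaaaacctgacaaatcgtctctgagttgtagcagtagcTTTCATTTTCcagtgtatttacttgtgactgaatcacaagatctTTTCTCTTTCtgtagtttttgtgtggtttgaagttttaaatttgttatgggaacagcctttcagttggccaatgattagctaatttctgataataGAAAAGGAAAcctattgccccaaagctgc
Ncf1 promoter: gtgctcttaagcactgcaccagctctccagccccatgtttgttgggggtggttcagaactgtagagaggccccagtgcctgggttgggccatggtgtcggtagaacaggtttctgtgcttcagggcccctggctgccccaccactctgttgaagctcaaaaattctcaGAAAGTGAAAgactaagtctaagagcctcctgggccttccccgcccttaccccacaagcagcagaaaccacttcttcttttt
The Cybb window held 3 matches, of which 1 was on the gene's strand and 2 on the other, and the Ncf1 window held 1. Of 32851 RefSeq windows of the same length, 2.98% held the motif. The Cyba window held none, and the other 3 members had no window in the table used. GAGGAAG, a core bound by PU.1, and TTGC, any 2 bases, AA, a C/EBP motif, were searched on both strands as well, did not match in the 3 windows and stood in 10.6% and 9.56% of all windows. The interferon-stimulated response element core was picked after the windows had been read, so these matches are a description.

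Rac1 and Rac2 are paralogs, so the part of the coding sequence that tells them apart is shown. Both coding sequences were 579 bases long and 77.0% identical, and their longest shared exact run, also over the whole annotated transcripts, was 29 bases. The last 60 bases, which encode the variable tail that targets each GTPase to membranes, were 53.3% identical against 79.8% in the rest. Capitals mark the 28 differing bases.
Rac1 coding end: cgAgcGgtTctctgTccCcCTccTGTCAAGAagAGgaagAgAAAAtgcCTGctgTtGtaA
Rac2 coding end: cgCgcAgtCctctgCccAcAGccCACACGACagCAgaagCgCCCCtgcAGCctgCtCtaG

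The shallowest library (KO, OVA 30 min, replicate 3) held 9.73 M counts and the others 38.7 M to 51.6 M; the median was 44.9 M. Levels are CPM, counts per 1 M of a library size scaled by TMM, and calls are Benjamini-Hochberg adjusted p (FDR) under 0.05 in edgeR's quasi-likelihood test over 14808 genes. TMM factors were 0.765 to 0.842 in the libraries given Jurkat cells for 4 h and 1.03 to 1.07 elsewhere. With library totals in place of TMM, the median log2 fold change of all genes at Jurkat 4 h moved from -0.02 to -0.42 in WT and from -0.03 to -0.37 in KO, so changes there are relative to the scaling. Rubcn was called lower in KO in each of the 5 conditions (log2 -0.44 to -0.24) without overlap of libraries, at 72.8 against 98.9 CPM in untreated cells, so most of its counts remained in KO. Dendritic cell markers were present: the sum over Flt3, Zbtb46, Itgax, H2-Aa, H2-Ab1 and Cd74 was 21172 CPM in untreated WT. All 10 plasmacytoid and all 10 monocyte or macrophage markers were above 1 CPM too. The cultures may thus have held more than 1 cell type, which was not tested. In such bulk RNA, fewer cells of a type and less RNA per cell cannot be told apart.

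In untreated WT cells Cybb stood at 779.9, 702 and 714 CPM, Rac2 at 552, 591 and 593, Ncf1 at 447, 462 and 449.5, Rac1 at 317, 313 and 321, Cyba at 271, 285 and 294, and Ncf4 at 70.5, 76.6 and 75.6. The scale that allows levels to be compared between genes is CPM per kilobase of exon. On it Cyba was highest at 381, followed by Rac2 at 190.5, Ncf1 at 157, Cybb at 154, Rac1 at 75.2 and Ncf4 at 50.7 CPM per kb. Ncf1 and Cybb overlapped between libraries, and no other neighbours did. After Jurkat cells for 4 h the WT order was Cyba at 783, Cybb at 487, Ncf1 at 386, Rac2 at 214, Ncf4 at 105 and Rac1 at 75.8 CPM per kb, with no overlap between neighbours. KO had the same order, with 779 for Cyba, 410.4 for Cybb, 324 for Ncf1, 192 for Rac2, 114 for Ncf4 and 74.3 for Rac1. Rac2 thus ranked directly after Cyba in untreated cells, and after apoptotic cells it stood behind the catalytic subunit and the organiser too.

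**Figure D1:**
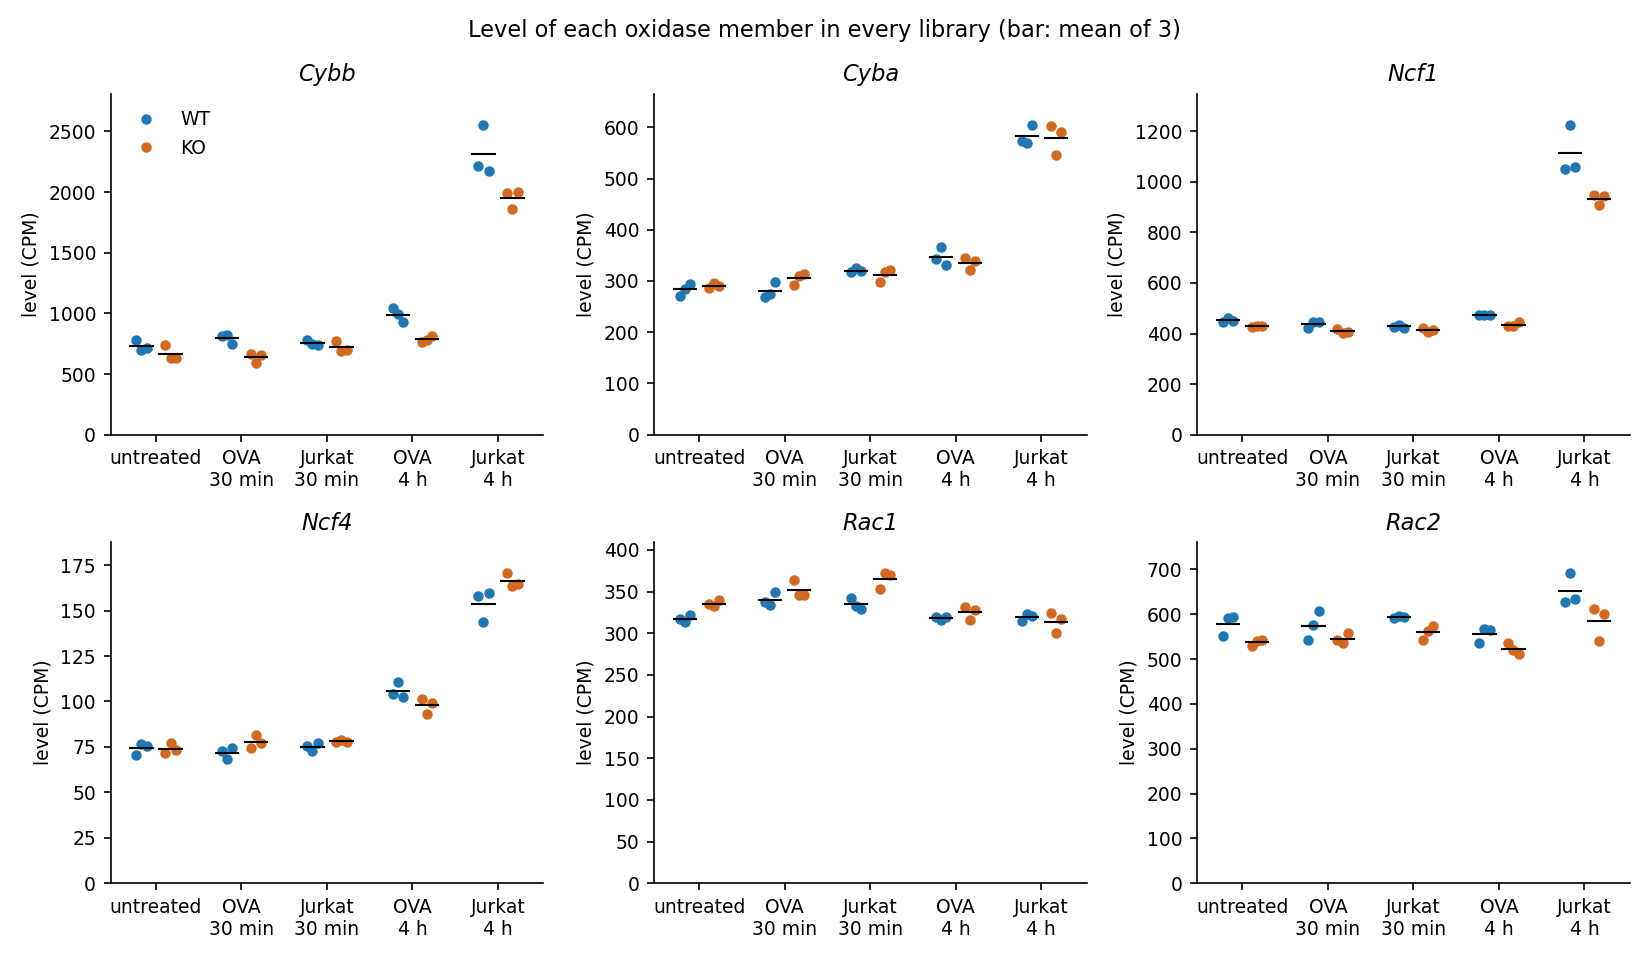
Level of each of the 6 oxidase genes in CPM (y axis, from 0) in all 30 libraries, by condition (x axis); points are libraries, blue for WT and orange for KO, and bars are means of 3. Cybb, Cyba, Ncf1 and Ncf4 stand apart in the libraries given Jurkat cells for 4 h, where Cybb reached a mean of 2314 CPM in WT, while Rac1 stays between 299.7 and 372 CPM throughout.

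After 4 h with apoptotic Jurkat cells both membrane subunits and both cytosolic subunits among the members rose 1.99- to 3.16-fold in each genotype, and the Rac genes moved little. Called members numbered 5 of 6 in WT, all higher, and 6 of 6 in KO, 5 higher and 1 lower. Of all genes tested, 79.5% were called in WT and 78.5% in KO. Genes called higher were 38.9% of all tested in WT and 37.5% in KO, and genes called lower in KO were 41%, so being called here says little about the members. The median log2 fold change of the 6 was 1.05 in WT and 1.06 in KO, against -0.02 and -0.03 over all genes tested, whose lower and upper quartiles were -0.57 and 0.61 in WT and -0.53 and 0.54 in KO.

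Cybb was at 2212, 2557 and 2173 CPM in WT and at 1991, 1862 and 1998 CPM in KO, all above every untreated library. Its log2 fold change was 1.66 in WT (SE 0.0673, edgeR FDR 2.08e-19), or 3.16-fold, and 1.55 in KO (SE 0.0671, FDR 1.21e-18), or 2.92-fold. Its partner Cyba was at 574, 569 and 605 CPM in WT and at 602, 546 and 591 CPM in KO, also without overlap with untreated cells. That rise was 2.06-fold in WT (log2 1.04, SE 0.0475, edgeR FDR 3.76e-18) and 1.99-fold in KO (log2 0.99, SE 0.0474, FDR 1.21e-17). The ratio of Cybb to Cyba within a library, per kilobase, was 0.405 ± 0.0392 in untreated and 0.623 ± 0.0727 in Jurkat 4 h WT libraries (SD, n = 3), and 0.359 ± 0.0383 and 0.527 ± 0.00856 in KO. The catalytic subunit's transcript thus gained on its partner's in both genotypes, with no overlap between the libraries. Such ratios do not depend on the scaling between libraries; the pairs were chosen after the fold changes were seen and are given without a test.

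Both cytosolic subunits among the members rose. Ncf1 was at 1052, 1227 and 1060.0 CPM in WT and at 947, 907 and 945 CPM in KO, against 427 to 462 CPM in the untreated libraries. It rose 2.46-fold in WT (log2 1.30, SE 0.0417, edgeR FDR 7.95e-22) and 2.18-fold in KO (log2 1.12, SE 0.0415, FDR 2.62e-20). Ncf4 was at 158, 144 and 159.9 CPM in WT and at 171, 164 and 165 CPM in KO, against 70.5 to 77.0 CPM untreated, with no overlap. Its log2 fold change was 1.05 in WT (SE 0.0463, edgeR FDR 1.6e-18) and 1.17 in KO (SE 0.0462, FDR 1.34e-19).

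Of the GTPase genes, Rac2 was at 628, 692 and 633 CPM in WT and at 611, 541 and 600.1 CPM in KO after Jurkat cells for 4 h. Against untreated cells the log2 fold change was 0.17 in WT (SE 0.0454, edgeR FDR 0.00123) and 0.12 in KO (SE 0.0454, FDR 0.017), but with library totals it turned to -0.23 and -0.22. In KO the libraries overlapped, and the call was lost without KO Jurkat 4 h replicate 1 (0.08, edgeR FDR 0.127) or replicate 3 (0.10, FDR 0.0866), or KO untreated replicate 1 (0.11, FDR 0.0657), and without the filter on low counts (0.09, FDR 0.0758). Rac1 was at 314, 323 and 321 CPM in WT and at 324, 299.7 and 316 CPM in KO, with a log2 fold change of 0.01 in WT (SE 0.0341, edgeR FDR 0.761) that was -0.39 with library totals, and of -0.10 in KO (SE 0.0341, FDR 0.00985) that was -0.44 with library totals (FDR 5.54e-13). DESeq2 did not call that difference in KO (log2 -0.04, adjusted p 0.27) and called Rac1 in WT (log2 0.08, adjusted p 0.0202), and edgeR lost the call in KO without KO Jurkat 4 h replicate 2 (FDR 0.0731), in a fit of the compared groups alone (0.0989), with the stricter filter of 5 CPM (0.23) and with DESeq2 size factors (0.312). With the latter 2 settings edgeR called Rac1 higher in WT (FDR 0.0428 and 0.0394). Within libraries, Rac2 to Rac1 per kilobase was 2.53 ± 0.102 in untreated and 2.83 ± 0.125 in Jurkat 4 h WT libraries (SD, n = 3), and 2.22 ± 0.0357 and 2.59 ± 0.0697 in KO, without overlap in either genotype. The rise of the other 4 members kept its sign with library totals, which gave the lowest value run for each: 1.25 for Cybb, 0.64 for Cyba, 0.89 for Ncf1 and 0.65 for Ncf4 in WT.

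**Figure D2:**
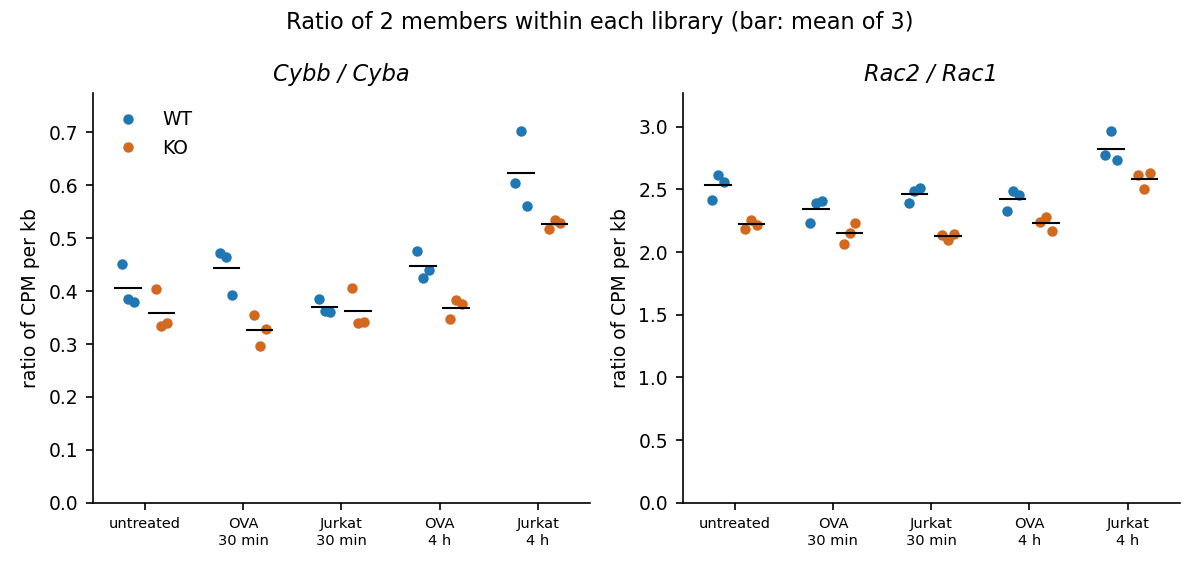
Ratio of CPM per kilobase of exon within each library (y axis, from 0), Cybb to Cyba (left) and Rac2 to Rac1 (right), by condition (x axis); points are libraries, blue for WT and orange for KO, and bars are means of 3. Cybb to Cyba is highest at Jurkat 4 h, where libraries range from 0.517 to 0.703, and Rac2 to Rac1 lies lower in KO than in WT in untreated cells, at 2.19 to 2.26 against 2.42 to 2.62.

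Reads of the human cells can enter the mouse counts, and the submitters' notes do not say how they were treated. Over 24 T-lineage genes the summed level was 96.5 to 102 CPM in untreated WT and 225 to 269.7 CPM in Jurkat 4 h WT libraries, and 107 to 114 and 188 to 215 CPM in KO. At Jurkat 4 h 4 of the 24 were under 1 CPM in WT and none was at 0. The 10 plasmacytoid dendritic cell markers summed to 4214 to 4940 CPM at Jurkat 4 h against 3178 to 3238 CPM in untreated WT, with 6 called higher and 4 lower. The 6 general dendritic cell markers summed to 36744 CPM on average against 21172 CPM, with 4 higher and 2 lower. Sums were lower for the 8 markers of conventional type 1 (mean 2030 against 2932 CPM, 5 called lower and 2 higher) and the 8 of type 2 dendritic cells (902 against 1620 CPM, 7 lower and 1 higher). The part of any of these lists in the members' changes was not tested.

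**Figure D3:**
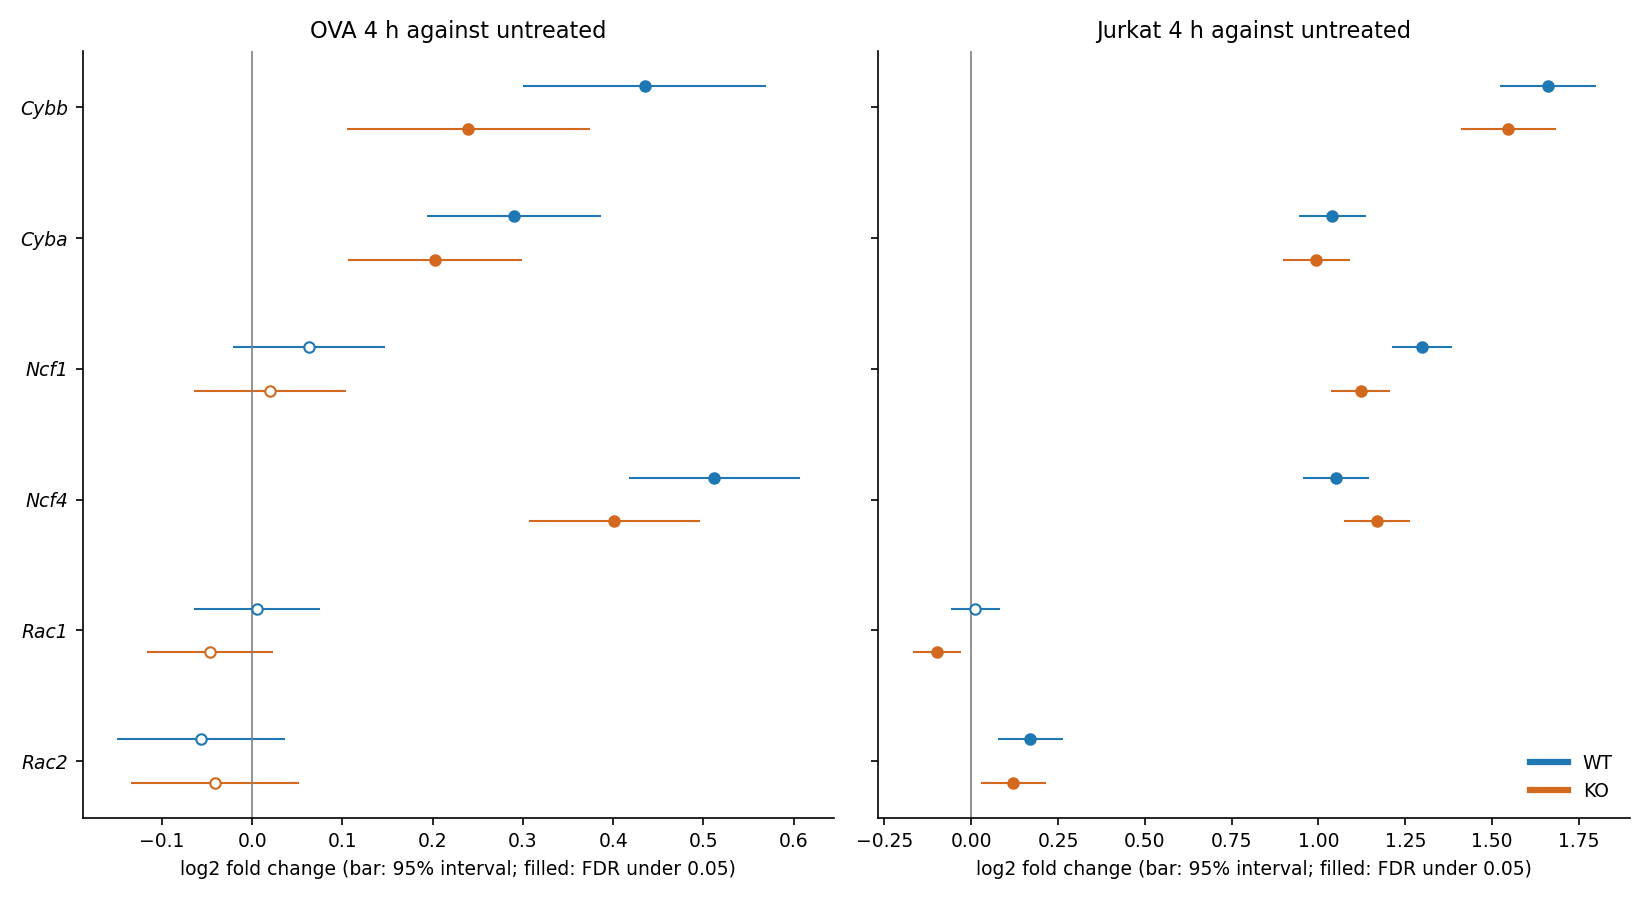
Log2 fold change against untreated cells (x axis) of the 6 members (y axis) after OVA for 4 h (left) and Jurkat cells for 4 h (right; the axes differ in range), blue for WT and orange for KO; bars are 95% intervals and filled points have an edgeR FDR under 0.05. Ncf4 has the largest rise with OVA (0.51 in WT) and Cybb the largest with Jurkat cells (1.66 in WT).

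OVA for 4 h raised 3 of the 6 members, Cybb, Cyba and Ncf4, in WT and in KO. Calls made up 23.5% of all genes tested in WT and 11.6% in KO, and calls of higher levels 11.9% and 5.94%. Ncf4 was at 104, 111 and 103 CPM in WT and at 101, 92.9 and 99.3 CPM in KO, all above the untreated libraries, a rise of 1.43-fold in WT (log2 0.51, SE 0.0461, edgeR FDR 1.59e-09) and 1.32-fold in KO (log2 0.40, SE 0.0462, FDR 4.23e-07). Cybb was at 1042, 997 and 929.7 CPM in WT and at 767, 783 and 814 CPM in KO, or 1.35-fold (log2 0.43, SE 0.0657, edgeR FDR 1.16e-05) and 1.18-fold (log2 0.24, SE 0.0657, FDR 0.0152) above untreated cells. The call in KO was lost without KO OVA 4 h replicate 3, or without KO untreated replicate 2 or 3, with an FDR of up to 0.0911. Cyba rose 1.22-fold in WT (log2 0.29, edgeR FDR 3.1e-05), to 343, 367 and 330.4 CPM, and 1.15-fold in KO (log2 0.20, FDR 0.00414), to 345, 321 and 339 CPM.

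The organiser was not called after OVA, other than after apoptotic cells. Ncf1 was at 472, 474 and 474 CPM in WT after OVA for 4 h and at 428, 431 and 445 CPM in KO, with log2 fold changes of 0.06 (edgeR FDR 0.286) and 0.02 (FDR 0.826). The WT libraries nevertheless lay above the untreated ones, at 447 to 462 CPM, as did 17.6% of all genes tested. In KO they overlapped. Rac1 and Rac2 were not called either, with log2 fold changes between -0.06 and 0.01 (lowest edgeR FDR 0.398). Apoptotic cells were also compared directly with OVA at 4 h, with the genotypes averaged. Jurkat libraries were higher for Cybb (log2 1.27, edgeR FDR 1.57e-20), Ncf1 (1.17, FDR 1.13e-24), Cyba (0.77, FDR 6.97e-19) and Ncf4 (0.65, FDR 1.83e-17). Rac2 was also called higher (0.19, edgeR FDR 2.69e-06) but turned to -0.17 with library totals, and Rac1 was not called (-0.02, FDR 0.375; -0.39 and called with library totals). Those 5 calls of 6 stand beside 82.6% of all genes tested, with 39.4% called higher.

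At 30 min the members hardly moved. OVA for 30 min gave no called member in WT, where 1 of 6 had an unadjusted p under 0.05, or in KO, where 0 of 6 did, beside 10.7% and 3.77% of all genes tested. The member with the lower p in WT was Rac1, at 337, 334 and 349 CPM against 313 to 321 untreated (log2 0.10, edgeR FDR 0.0542), which edgeR called with the stricter filter (FDR 0.0347) or DESeq2 size factors (0.0494), as did DESeq2 (adjusted p 0.0124); DESeq2 called 0 of 6 in KO. Jurkat cells for 30 min gave 1 called member of 6 in each genotype, beside 28.7% of all genes tested in WT and 17% in KO; both were higher, as were 14.2% and 8.72% of all genes. In WT it was Cyba, at 318, 324 and 319 CPM (log2 0.18, SE 0.0471, edgeR FDR 0.00569), all above the untreated libraries. In KO it was Rac1, at 353, 372 and 370.2 CPM against 335, 332 and 339 untreated (log2 0.12, SE 0.034, edgeR FDR 0.0132), a call lost without KO Jurkat 30 min replicate 2 (FDR 0.0696) or KO untreated replicate 2 (FDR 0.0558). The direct comparison of Jurkat cells with OVA at 30 min called Cyba higher (log2 0.11, edgeR FDR 0.0129) and no other member, beside 29.9% of all genes tested, with 15.5% called higher.

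In KO against WT cells, the catalytic subunit was the member that edgeR called most often. Cybb was called lower in KO after OVA for 30 min, OVA for 4 h and Jurkat cells for 4 h, at 0.796 to 0.843 times the WT level. Ncf1 was called lower with both cargoes at 4 h. Called members numbered 0 of 6 in untreated cells, 1 after OVA for 30 min, 1 after Jurkat cells for 30 min, 2 after OVA for 4 h and 3 after Jurkat cells for 4 h. The shares of all genes tested that were called were 9.97%, 12.4%, 9.25%, 12.6% and 22.9%. The members were called lower, as were 6.13% of all genes after OVA for 30 min, 6.35% after OVA for 4 h and 13.5% after Jurkat cells for 4 h, except for 1 higher after Jurkat cells for 30 min, where 5.58% of all genes were. In untreated cells 2 of 6 had an unadjusted p under 0.05, Rac1 and Rac2, and DESeq2 called 0.

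After OVA for 30 min Cybb was at 662, 587 and 659.8 CPM in KO and at 814, 819 and 749 CPM in WT, without overlap (log2 -0.32, SE 0.0659, 95% interval -0.46 to -0.19, edgeR FDR 0.0015). After OVA for 4 h it was at 767, 783 and 814 CPM in KO and at 1042, 997 and 929.7 CPM in WT, again without overlap (log2 -0.33, SE 0.0657, interval -0.46 to -0.19, edgeR FDR 0.00078). After Jurkat cells for 4 h all 3 KO libraries, 1862 to 1998 CPM, lay below all 3 WT libraries, 2173 to 2557 CPM (log2 -0.25, SE 0.0655, interval -0.38 to -0.11, edgeR FDR 0.00683). Without WT Jurkat 4 h replicate 2, the highest, that value was -0.17 (FDR 0.087). KO Jurkat 4 h replicate 2 differed far more from its replicates over all genes than other libraries did (chi-square per gene 141 and 146). It was the lowest KO library there for Cybb, Ncf1, Rac1 and Rac2. Without it the calls of Cybb and Ncf1 in KO against WT were kept. In untreated cells the log2 difference of Cybb was -0.13 (interval -0.27 to 0.00, edgeR FDR 0.236) and after Jurkat cells for 30 min -0.07 (interval -0.20 to 0.06, FDR 0.581), and libraries overlapped in both.

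Ncf1 was at 947, 907 and 945 CPM in KO and at 1052, 1227 and 1060.0 CPM in WT after Jurkat cells for 4 h, a log2 difference of -0.25 (SE 0.041, interval -0.34 to -0.17, edgeR FDR 5.31e-05). After OVA for 4 h it was -0.12 (SE 0.0411, edgeR FDR 0.0498). Although those libraries did not overlap, at 428 to 445 CPM in KO and 472 to 474 CPM in WT, the call was lost without any 1 of the 6 libraries (FDR 0.0615 to 0.181), without the filter on low counts (0.0665) and with library totals (0.0939). In the other 3 conditions its log2 difference was -0.10 to -0.05, without a call by edgeR, while DESeq2 called it after OVA for 30 min (adjusted p 0.0386). The libraries did not overlap there either. KO against WT stood at 427 to 430 against 447 to 462 CPM in untreated cells. It was 400 to 418 against 423 to 447 CPM after OVA for 30 min, and 405 to 422 against 424 to 435 CPM after Jurkat cells for 30 min. Of all genes tested, 11.8%, 14.9% and 12.3% were lower in KO without overlap in these conditions.

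Cyba, the partner of Cybb, was called in no condition, with log2 differences from -0.05 to 0.12 and the lowest edgeR FDR, 0.107, after OVA for 30 min. DESeq2 did not call it either, but without WT OVA 30 min replicate 3 edgeR called it higher in KO there (log2 0.16, FDR 0.0365). Its 95% interval reached from -0.10 to 0.09 after Jurkat cells for 4 h, where Cybb's reached from -0.38 to -0.11. Ncf4 was not called either, at -0.11 after OVA for 4 h (edgeR FDR 0.109) and 0.11 after Jurkat cells for 4 h (FDR 0.0724; 0.19 and called with library totals).

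Rac2 had a negative log2 difference in each condition, from -0.16 to -0.08, and passed the threshold after Jurkat cells for 4 h, where KO libraries lay at 541 to 611 CPM and WT libraries at 628 to 692 CPM (log2 -0.16, SE 0.0455, edgeR FDR 0.0126). That call was lost with library totals (-0.08, FDR 0.186), in a fit of the compared groups alone (-0.13, FDR 0.104) and without KO Jurkat 4 h replicate 2 (-0.11, FDR 0.124) or WT Jurkat 4 h replicate 2 (-0.11, FDR 0.115). Without a call, Rac2 libraries were also lower in KO without overlap in untreated cells, at 528 to 542 against 552 to 593 CPM. After Jurkat cells for 30 min they stood at 543 to 573 against 591 to 596 CPM, and after OVA for 4 h at 511 to 535 against 536 to 567 CPM. Of all genes tested, 11.8%, 12.3% and 16.8% were lower in KO without overlap in these conditions. Rac1 was higher in KO after Jurkat cells for 30 min, at 353, 372 and 370.2 CPM against 343, 332 and 329 CPM in WT (log2 0.13, SE 0.034, edgeR FDR 0.0184), and its values elsewhere ran from -0.03 to 0.08. It was not called in a fit of the compared groups alone (FDR 0.0755), and leaving out KO replicate 2 or 3 or WT replicate 2 or 3 of that condition gave FDRs of 0.0609 to 0.0843. In untreated cells Rac1 libraries were higher in KO without overlap, at 332 to 339 against 313 to 321 CPM, as were 13% of all genes tested. The ratio of Rac2 to Rac1 per kilobase within libraries was 2.22 ± 0.0357 in untreated KO and 2.53 ± 0.102 in untreated WT (SD, n = 3), and 2.13 ± 0.0267 against 2.46 ± 0.063 after Jurkat cells for 30 min. At 4 h it was 2.23 ± 0.0593 against 2.42 ± 0.0844 with OVA and 2.59 ± 0.0697 against 2.83 ± 0.125 with Jurkat cells, and in these 4 conditions the libraries of the genotypes did not overlap. After OVA for 30 min they did, at 2.15 ± 0.0843 in KO and 2.34 ± 0.096 in WT.

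**Figure D4:**
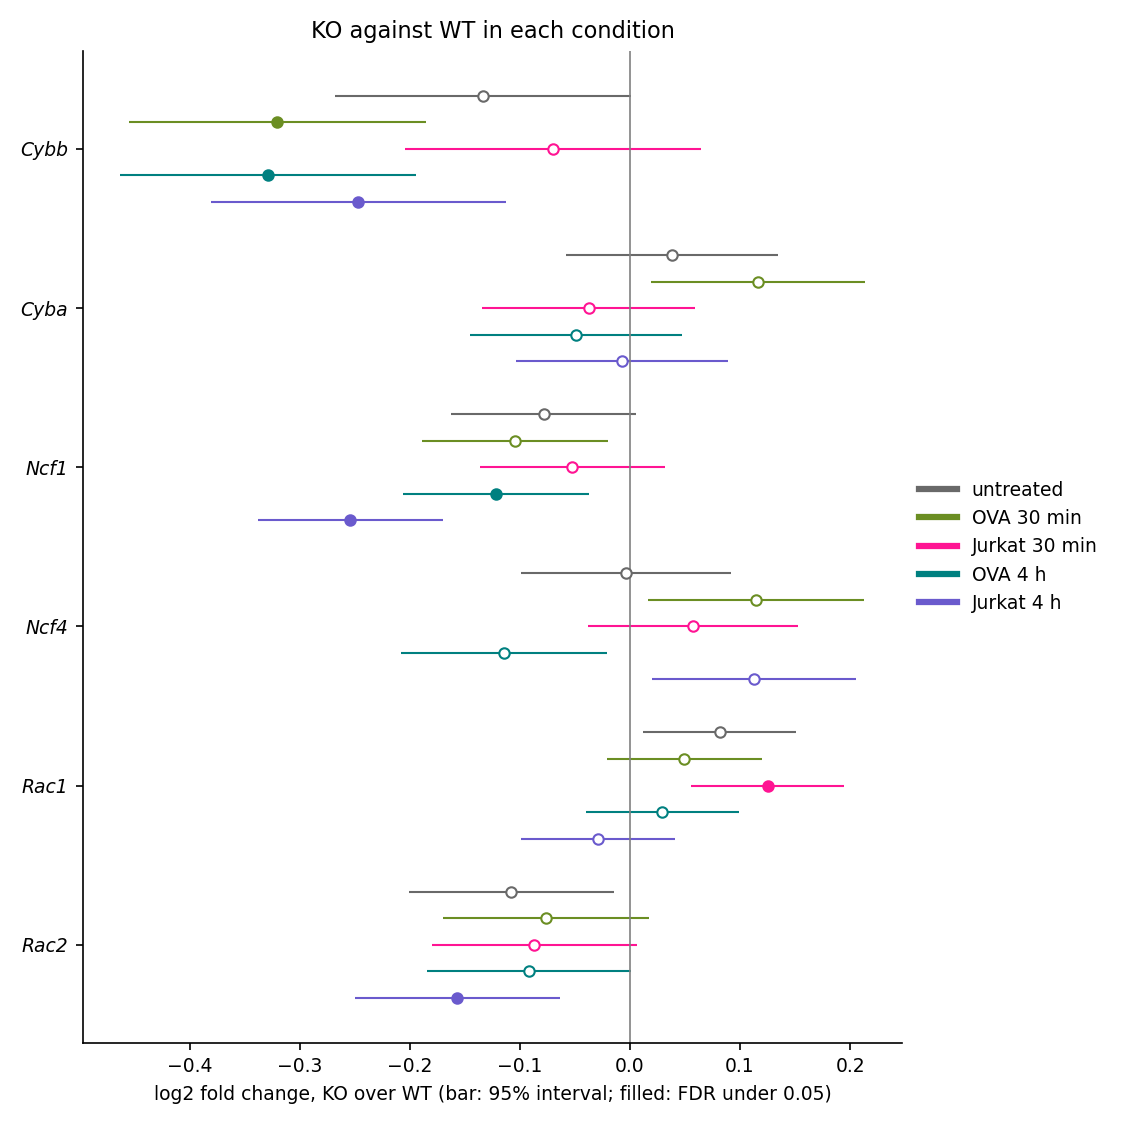
Log2 fold change of KO over WT (x axis) for each of the 6 members (y axis) in the 5 conditions, by colour; bars are 95% intervals and filled points have an edgeR FDR under 0.05. Cybb lies below 0 in each condition, from -0.33 to -0.07, and Cyba lies between -0.05 and 0.12.

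Some cell markers moved with genotype beside these differences, and others hardly did. The 10 plasmacytoid dendritic cell markers, all detected above 1 CPM in every group, summed to 2766 to 2944 CPM in untreated KO and 3178 to 3238 CPM in untreated WT libraries, and to 3408 to 3788 and 4214 to 4940 CPM after Jurkat cells for 4 h. In each of the 5 conditions 4 to 7 of them were called lower in KO and 1 higher. The 12 neutrophil markers, of which 3 or 4 were under 1 CPM, summed to 123 to 127 CPM in KO and 155 to 161 CPM in WT after Jurkat cells for 4 h. Of these markers 6 were called lower and 1 higher in KO there. In untreated libraries the sums overlapped, at 122 to 155 CPM in KO and 153 to 173 CPM in WT. They did not overlap after OVA for 30 min (134 to 141 and 145 to 172 CPM) or 4 h (141 to 143 and 166 to 178 CPM). Neither did they after Jurkat cells for 30 min (155 to 166 and 179 to 208 CPM). The 8 stromal markers were higher in KO, at 719.7 to 901 CPM against 558 to 639.9 CPM in untreated libraries. The 8 markers of conventional type 2 dendritic cells were also higher in KO, at 1673 to 1804 against 1591 to 1646 CPM in untreated libraries. After Jurkat cells for 4 h they summed to 1028 to 1095 against 874 to 935 CPM. Called higher and lower were 2 and 1 in untreated cells, and 5 and 0 after Jurkat cells for 4 h. Conventional type 1 markers overlapped in untreated libraries, at 2979 to 3060 CPM in KO and 2832 to 3057 CPM in WT, with 1 higher and 1 lower. Of the 6 general dendritic cell markers, 0 were higher and 1 lower in untreated cells, and 1 and 1 after Jurkat cells for 4 h. Of 6 B cell markers, 2 and 1 were higher in these conditions and 0 lower. The 7 basophil or mast cell markers were higher in KO in all 5 conditions, with 6 or 7 called and a median log2 difference of 1.20 to 1.59, and summed to 193 to 221 CPM in untreated KO and 147 to 158 CPM in untreated WT. In the OVA conditions, where Cybb differed most, plasmacytoid markers summed to 2409 to 2787 CPM in KO and 3103 to 3374 CPM in WT at 30 min, and to 2746 to 2833 and 3190 to 3204 CPM at 4 h. Of the 10 monocyte or macrophage markers, 3 were called lower in KO after OVA for 30 min and 4 after OVA for 4 h, with 0 higher. Their sums overlapped between the genotypes (4081 to 4283 and 4164 to 4673 CPM at 30 min, 4743 to 4817 and 4661 to 5002 CPM at 4 h). In untreated cells 1 was higher and 1 lower, and after Jurkat cells for 4 h 1 was higher and 3 lower. Called lower were 6.13% of all genes tested after OVA for 30 min and 6.35% after OVA for 4 h. The shares higher and lower were 6% and 3.97% in untreated cells, and 9.37% and 13.5% after Jurkat cells for 4 h. The T-lineage genes, listed for the Jurkat cells, summed to 188 to 215 CPM in KO and 225 to 269.7 CPM in WT after Jurkat cells for 4 h. Of 22 tested, 7 were called lower in KO there and 0 higher. In untreated cells 1 was lower and 4 were higher. The part of these lists in the lower Cybb and Ncf1 of KO was not tested.

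Whether a response differed between genotypes was tested directly as an interaction. None of the 6 members passed in any of the 4 treatments, beside 0% of all genes tested for OVA 30 min, 0.00675% for Jurkat 30 min, 0.0405% for OVA 4 h and 4.26% for Jurkat 4 h. The nearest was Ncf1 at Jurkat 4 h, with a response 0.18 smaller in KO on the log2 scale (log2 -0.18, SE 0.058, interval -0.29 to -0.06, edgeR FDR 0.0813), which DESeq2 called (adjusted p 0.0428), as did edgeR without WT Jurkat 4 h replicate 1 (FDR 0.0308) or replicate 3 (FDR 0.0431). For Cybb the interaction was -0.20 at OVA 4 h (interval -0.39 to -0.01, edgeR FDR 0.671) and -0.11 at Jurkat 4 h (interval -0.30 to 0.08, FDR 0.553). Unadjusted p was under 0.05 for 0, 0, 1 and 2 members in these treatments, and DESeq2 called 0, 0, 0 and 1.

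Genes that work with the oxidase were followed as lists, whose counts stand beside all genes tested: at Jurkat 4 h 38.9% were called higher and 40.6% lower in WT, and 37.5% and 41% in KO. Of 27 tested genes of oxidase assembly and control, 11 rose and 10 fell in WT after Jurkat cells for 4 h (median log2 0.10, against -0.02 over all genes tested), and 10 rose and 10 fell in KO, shares near those of all genes. Pak1, a kinase bound by active Rac, fell from 357 to 107 CPM in WT (log2 -1.73, edgeR FDR 1.4e-25), and Pik3cg, a PI3-kinase catalytic subunit, from 140 to 49.9 CPM (log2 -1.49, FDR 7.74e-24). Prkcd, a kinase that phosphorylates p47phox, rose from 514 to 1024 CPM (1.99-fold, edgeR FDR 1.31e-19). The chaperone of the Cybb and Cyba heterodimer is listed as BC017643, also known as Cybc1 or Eros. It was lower in KO than in WT after Jurkat cells for 4 h, at 119 against 138 CPM (log2 -0.22, edgeR FDR 0.000985). In that comparison 9 of the 27 were lower in KO and 2 higher, beside 13.5% and 9.37% of all genes tested; the lower genes included S100a9 (log2 -0.46, FDR 0.000962), which is also one of the neutrophil markers above.

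The cells expressed little of any other catalytic NADPH oxidase. Untreated WT libraries held 0.273 CPM per kb of Nox1 and 0.0199 of Nox4, against 154 of Cybb. Nox3 had 0 counts in the untreated WT libraries. Nox1 rose after Jurkat cells for 4 h, from 0.699 to 6.5 CPM in WT (log2 3.21, edgeR FDR 6.24e-15), and its organiser Noxo1 fell from 3.6 to 1.24 CPM (log2 -1.53, FDR 3.4e-11).

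Of 16 enzymes that remove superoxide and peroxide, 11 were higher and 5 lower in WT after Jurkat cells for 4 h, and 10 and 5 in KO, beside 38.9% and 40.6% of all genes in WT. Their median log2 fold change was 0.68 in WT against -0.02 over all genes tested. Sod2, the mitochondrial superoxide dismutase, rose from 51.1 to 212 CPM (log2 2.05, edgeR FDR 2.55e-27), and the thioredoxin reductase Txnrd1 from 132 to 638 CPM (log2 2.27, FDR 2.98e-24). With OVA for 4 h 8 of 16 rose and 0 fell in WT, beside 11.9% and 11.7% of all genes; those that rose included the sulfiredoxin Srxn1 (log2 1.17, edgeR FDR 1.07e-08). Of 11 genes of NADPH supply, 5 rose and 4 fell in WT after Jurkat cells for 4 h, near the shares of all genes. Pgd, an enzyme of the pentose phosphate pathway that makes NADPH, rose from 138 to 386 CPM (log2 1.49, edgeR FDR 7.99e-23), while the malic enzyme Me2 fell by 0.96 on the log2 scale. Taldo1, a transaldolase of the same pathway, was lower in KO in untreated cells and at both 4 h conditions (log2 -0.22, -0.22 and -0.21). Of the 11 genes, 1, 2 and 1 were called lower in KO in untreated cells, OVA 4 h and Jurkat 4 h, and 1 was higher in each. Of all genes tested, 3.97%, 6.35% and 13.5% were lower and 6%, 6.22% and 9.37% higher.

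Among 11 transcription factors known to act at oxidase genes, 6 rose and 3 fell in WT after Jurkat cells for 4 h, and 7 and 3 in KO, where 78.5% of all genes were called, as were 79.5% in WT. Irf1 rose from 191 to 838 CPM (log2 2.14, edgeR FDR 3.67e-25), whereas Cebpa fell from 80.7 to 15.0 CPM (log2 -2.42, FDR 1.62e-24). KO cells had less Irf1 than WT cells when untreated (log2 -0.24, edgeR FDR 0.000961) and after OVA for 4 h (-0.26). Of the 11 factors, however, 3 were called higher and 1 lower in KO when untreated. The counts were 3 and 2 after OVA for 4 h, and 2 and 3 after Jurkat cells for 4 h. Of all genes tested, 6% were higher and 3.97% lower when untreated, 6.22% and 6.35% after OVA, and 9.37% and 13.5% after Jurkat cells. Of 16 genes of LC3-associated phagocytosis, 5 rose and 8 fell in WT after Jurkat cells for 4 h, again beside 38.9% and 40.6% of all genes. Gabarap, a relative of LC3, rose from 290 to 467 CPM (log2 0.68, edgeR FDR 1.34e-15), while Atg7, which activates LC3 for conjugation, fell from 54.1 to 29.3 CPM (log2 -0.88, FDR 6.28e-17). Rubcn itself fell from 98.9 to 58.9 CPM in WT (log2 -0.75, edgeR FDR 1.58e-14).

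The members' patterns over the 10 group means were compared with those of other genes tested, as Pearson's r of log2 CPM. Symbols that start with Gm and a digit, or end in Rik or in a point and digits, were left out. The points share the untreated-to-Jurkat step, so r is high for many genes: 2745 exceeded 0.9 for Cybb, 2758 for Cyba, 2828 for Ncf1 and 1922 for Ncf4, against 72 for Rac2 and 8 for Rac1. Nearest to Cybb were Ccdc50, Ifih1 and Ifi211 (r = 0.998, 0.998 and 0.997), of which Ifih1 encodes the RNA sensor MDA5. Nearest to Cyba were Tnfrsf8, Psmb6 and Hmox1 (0.998, 0.998 and 0.996), and to Ncf1 Sp140, Ubr4 and Riox2 (0.999, 0.999 and 0.998). Ncf4 was nearest to Clec4a1, Nrp2 and Tfec (0.996, 0.995 and 0.995), Rac2 to Hnrnph1, Sorl1 and Tmem209 (0.979, 0.976 and 0.974), and Rac1 to Rab11b, Qsox2 and Prps1 (0.959, 0.916 and 0.916). Over the 30 libraries r was lower for these genes of Rac2 (0.611, 0.897 and 0.831) and Rac1 (0.765, 0.669 and 0.693), and 0.929 or above for those of the other 4 members. Between members, r of Cybb with Ncf1 was 0.984 over the 10 groups and 0.831 over the 8 groups without Jurkat 4 h. For Cyba with Ncf1 the values were 0.964 and 0.23, and for Cyba with Ncf4 0.971 and 0.872. Rac1 had a negative r with every other member in both sets of groups, such as -0.566 and -0.854 with Ncf1. With Rac2 its values were -0.312 and -0.0282. For Rac2, r with Ncf4 turned from 0.477 to -0.479 and r with Cyba from 0.616 to -0.296. With Cybb it was 0.71 and 0.133, and with Ncf1 0.729 and 0.175.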

How the data were processed

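DNase-treated RNA, isolated by Trizol and column, was sequenced as Illumina TruSeq libraries, per the labels' protocols. The authors deposited 1 table of read counts per gene, with symbol, Entrez identifier and mm10 interval, per the file headers. Per the submitters' processing notes the tools were STAR 2.5, Subread, featureCounts 1.5.0-p1 and DESeq2, and the build was mm10; for the annotation, the use of strand and the treatment of human reads nothing is given in the sources used here.

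From these counts, edgeR 4.0.16 (R 4.3.3) fitted 1 quasi-likelihood model with a mean per group to all 30 libraries, after TMM scaling and filterByExpr by group, which left 14808 of 25611 genes. Tests were two-sided, and a gene was called at a Benjamini-Hochberg adjusted p (FDR) under 0.05 among all those tested. The common BCV, the biological coefficient of variation, was 0.0515. CPM means are over 3 libraries, and log2 fold changes carry SEs and 95% intervals from the same fit. The scripts were tested on simulated data. Replicates differed by more than sampling noise. Between 2 libraries of a group, the chi-square of the counts per gene was 2.36 to 18.0, except in pairs with KO Jurkat 4 h replicate 2. That library stood at 141 against replicate 1 and 146 against replicate 3, which differed from each other by 5.31. The cause was not tested. All 30 count columns matched a sample title. Groups and replicate numbers came from the titles.

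Levels per kilobase used exon lengths of GENCODE M21 (GRCm38), which may differ from the authors' annotation. Promoter windows are from RefSeq, GRCm38.p6, for 3 of the 6 members, and the Cyba start there differed from that of GENCODE. Rac coding sequences are the longest reading frames of the GENCODE transcripts Rac1-201 and Rac2-201.

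The members and lists were chosen with earlier results of these data known. Members are named in every contrast. From each list, up to 3 genes with the smallest p and an FDR under 0.05 may be named. The contrasts for that are KO against WT (untreated and 4 h) and WT at 4 h. Any list gene may be named for its level. For likeness, the 3 genes of highest r among the symbols kept are named. The ratios and the interferon-stimulated response element motif were chosen after values or sequences were seen. Some related genes are not reported here. Alternatives were DESeq2 size factors, library totals, no filter, at least 5 CPM in 3 libraries, a replicate block, only the compared groups, DESeq2 1.42.0 and each library left out.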

Additional observations from a re-analysis of the deposited data

How the results depend on the processing

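With library totals in place of TMM, Rac2 at Jurkat 4 h against untreated turned to -0.23 in WT and -0.22 in KO, Rac1 in WT to -0.39, and Rac2 in Jurkat against OVA at 4 h to -0.17 (log2); these follow the shift of all genes under that scaling. Totals moved the share of calls that were higher from 40.9% to 74.8% for KO against WT at Jurkat 4 h, from 50.5% to 63.8% at OVA 30 min and from 49.5% to 64.5% at OVA 4 h, from 48.9% to 29.0% for Jurkat 4 h in WT and from 47.7% to 29.2% in KO, from 47.7% to 27.4% for Jurkat against OVA at 4 h and from 40.3% to 76.8% for the Jurkat 4 h interaction. A fit of only the compared groups moved that interaction to 68.5% as well, with 337 calls among all genes in place of 631; the same setting gave 891 in place of 1370 for KO against WT at Jurkat 30 min, 833 in place of 1578 for OVA 30 min in WT, 246 in place of 558 in KO and 1460 in place of 2514 for Jurkat 30 min in KO. For KO against WT, DESeq2 moved OVA 30 min to 40.3%. Members called in KO against WT were 0 at Jurkat 30 min with only the compared groups (main 1), 2 at OVA 30 min with DESeq2 (main 1) and 1 at OVA 4 h with totals and without the filter (main 2). In WT at OVA 30 min 1 member, Rac1, was called with DESeq2, DESeq2 size factors and the stricter filter (main 0), and DESeq2 called 1, Ncf1, in the Jurkat 4 h interaction (main 0). Leaving out 1 library gave 1 to 2 called members for KO against WT at OVA 30 min, 0 to 1 at Jurkat 30 min, 1 to 1 at OVA 4 h and 1 to 3 at Jurkat 4 h, 0 to 1 for Jurkat 30 min in KO, 2 to 3 for OVA 4 h in KO, 5 to 6 for Jurkat 4 h in KO and 0 to 1 for the Jurkat 4 h interaction, and the main count elsewhere. Apart from the scaling, the cause of these changes was not tested. Another 16 values, called under neither setting and at most 0.0723 in size, changed sign outside the leave-one-out fits. Same-numbered libraries of 2 groups correlated at -0.118 to 0.151 in their deviations from the group means, not over 0.1 in every pair of any contrast. The labels do not say whether same-numbered libraries are paired, and these correlations, with few libraries per group, cannot decide it. With a replicate block across genotypes 1 member was called in KO against WT at OVA 4 h and 1 in OVA 30 min in WT, and with a replicate block within genotype 1 in the Jurkat 4 h interaction; other counts with a block stayed within 1.5 times. The members' SEs in KO against WT at OVA 30 min, which holds the shallowest library, were 0.0342 to 0.0659, against 0.034 to 0.0657 in untreated cells.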
